A study of Mus musculus with 2 samples.

Results

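Axon guidance ligands and receptors were followed across excitatory, inhibitory and striatal neurons of the perinatal mouse forebrain. The genes were taken by symbol: names that begin with Sema, Plxn, Epha, Ephb, Efna, Efnb or Unc5, names of Robo, Slit and Ntn followed by a digit, and Nrp1, Nrp2 and Dcc. The rule found 73 symbols among the 31053 genes of the embryonic library and the 31054 features of the postnatal library. Of these, 68 encode guidance ligands or receptors, 34 of each kind, and the other 5 are described at the end.

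Both libraries are single-cell RNA-seq of living cells, sorted as propidium iodide-negative and DRAQ5-positive, and each age has 1 library. One was made at embryonic day 18 (E18) from mice of genotype CD1. Its tissue lay above the lateral ventricles and took in cortex as well as the dorsal ventricular-subventricular zone (V-SVZ), the germinal layer lining these ventricles. The other was made at postnatal day 2 (P2) from Emx1Cre;R26Eyfpfl/fl mice, and its tissue was the dorsal and lateral V-SVZ without the cortex. In these mice Cre is driven from the Emx1 locus, so that cells descending from Emx1-expressing cortical progenitors carry EYFP. The sources used here do not give how many animals were pooled, and age, dissection, mouse line and library cannot be told apart. With 1 library a group no test could be run, and all intervals below are 95% intervals that cover counting error only.

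Guidance cues steer growing axons and migrating neurons by attraction or repulsion. Semaphorins signal through plexins, and most secreted ones also bind a neuropilin, with Sema3e, which binds Plxnd1 directly, as an exception. Ephrins are membrane-bound ligands of Eph receptor tyrosine kinases, and many Eph receptors and ephrins lay down topographic maps. Slits repel through Robo receptors, and netrins attract through Dcc and repel through Unc5 receptors. In the V-SVZ, Slits and Robo receptors are known for steering neuroblasts on their way to the olfactory bulb, and in the cortex semaphorins, neuropilins and Unc5 receptors are known from migrating excitatory neurons.

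Depth was 19986915 UMIs in 2922 barcodes at E18 and 42572208 UMIs in 2778 barcodes at P2, and the libraries shared 0 barcodes. Filtering left 2496 cells at E18 and 2296 at P2, whose median depths were 6574 and 12525 UMIs. Each library was clustered by itself with the 73 genes left out, and clusters were named from marker lists. At E18 the excitatory class held 1837 cells with 14151790 UMIs and the inhibitory class 298 cells with 1464798 UMIs, and 0 cells were named striatal. At P2 there were 217 excitatory cells with 2707989 UMIs, 1152 inhibitory cells with 13446967 UMIs and 183 striatal cells with 2312863 UMIs. Neurod6, a transcription factor gene of excitatory neurons, was at 1299 CPM (UMIs of the gene for each 1000000 UMIs of the class) in E18 excitatory and 24.6 CPM in E18 inhibitory cells. At P2 Neurod6 was at 301 CPM in excitatory and 1.41 CPM in inhibitory cells, and Foxp1, a striatal marker, was at 2315 CPM in striatal and 131 CPM in inhibitory cells. Gad2, which encodes an enzyme of GABA synthesis, was at 525 CPM in P2 inhibitory cells but also at 50.2 CPM in P2 excitatory cells, against 11.2 CPM in P2 microglia.

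The promoters of 4 genes whose levels set a class apart are shown here. Sema3c and Nrp1 were higher in excitatory than inhibitory cells of both libraries, and Plxnd1 and Epha8 were highest in the striatal class. Each sequence is a window of 300 bases that spans the RefSeq start of transcription on GRCm38.p6, and 58 of the 68 genes had such an entry, with 74 promoters in all. The windows are chr5:17574566-17574865 on the plus strand for Sema3c, chr8:128358823-128359122 on the plus strand for Nrp1, chr6:115994956-115995255 on the minus strand for Plxnd1 and chr4:136956767-136957066 on the minus strand for Epha8. Capitals mark an E-box of the kind bound by Neurod factors (CAGATG, or CATCTG on the other strand).
Sema3c: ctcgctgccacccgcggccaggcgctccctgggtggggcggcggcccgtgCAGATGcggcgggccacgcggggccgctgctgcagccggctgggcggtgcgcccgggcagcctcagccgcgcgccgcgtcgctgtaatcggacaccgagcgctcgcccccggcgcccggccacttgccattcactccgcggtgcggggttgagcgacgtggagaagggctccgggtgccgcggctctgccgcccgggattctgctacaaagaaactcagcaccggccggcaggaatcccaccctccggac
Nrp1: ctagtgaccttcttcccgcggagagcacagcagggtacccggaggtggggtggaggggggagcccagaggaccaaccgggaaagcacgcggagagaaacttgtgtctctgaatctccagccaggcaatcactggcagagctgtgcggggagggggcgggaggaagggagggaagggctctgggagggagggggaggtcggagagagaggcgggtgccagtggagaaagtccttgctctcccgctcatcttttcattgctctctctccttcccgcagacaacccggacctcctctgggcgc
Plxnd1: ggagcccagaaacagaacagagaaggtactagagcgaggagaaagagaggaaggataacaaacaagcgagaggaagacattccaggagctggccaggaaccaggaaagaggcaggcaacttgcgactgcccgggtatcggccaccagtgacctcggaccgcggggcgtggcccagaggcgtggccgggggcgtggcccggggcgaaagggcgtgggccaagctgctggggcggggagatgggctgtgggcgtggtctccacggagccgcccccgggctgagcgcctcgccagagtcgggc
Epha8: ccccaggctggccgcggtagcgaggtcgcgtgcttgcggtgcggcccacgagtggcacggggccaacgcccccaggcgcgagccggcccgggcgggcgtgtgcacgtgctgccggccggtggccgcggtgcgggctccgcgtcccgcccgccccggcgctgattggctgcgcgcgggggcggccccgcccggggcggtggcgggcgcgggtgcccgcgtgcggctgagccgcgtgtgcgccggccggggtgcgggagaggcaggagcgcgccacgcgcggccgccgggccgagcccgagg
The Sema3c window held 1 such E-box and the other windows none. Over all 32851 RefSeq promoters of this length 17.2% held one, against 6.76% of the 74 promoters of guidance genes. A homeodomain core, TAATTA, stood in 3 of the 74 guidance promoters and in 5.29% of all promoters, and a forkhead core, TGTTTAC or GTAAACA, stood in 0 of the 74 and in 3.65% of all. These matches describe letters in a window and not bound sites.

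All classes held guidance transcripts, and within each library the excitatory class held the most. The summed level of the 68 genes was 2178 CPM in E18 excitatory and 1473 CPM in E18 inhibitory cells. At P2 it was 5008 CPM in excitatory, 1842 CPM in inhibitory and 2272 CPM in striatal cells. Between 31 and 40 of the genes were above 10 CPM in each class. Epha1, Ntn5, Robo4 and Sema3g were at 0 UMIs in each of these classes, and Epha2, Plxnb3, Robo3 and Sema3d had at most 2 UMIs in any of them. For a gene at 0 UMIs the limit that 3 UMIs set was 0.212 CPM in E18 excitatory, 2.05 CPM in E18 inhibitory, 1.11 CPM in P2 excitatory, 0.223 CPM in P2 inhibitory and 1.30 CPM in P2 striatal cells. Since the sources used here do not give the chemistry of the libraries, levels are compared between classes and not between genes.

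**Figure D1:**
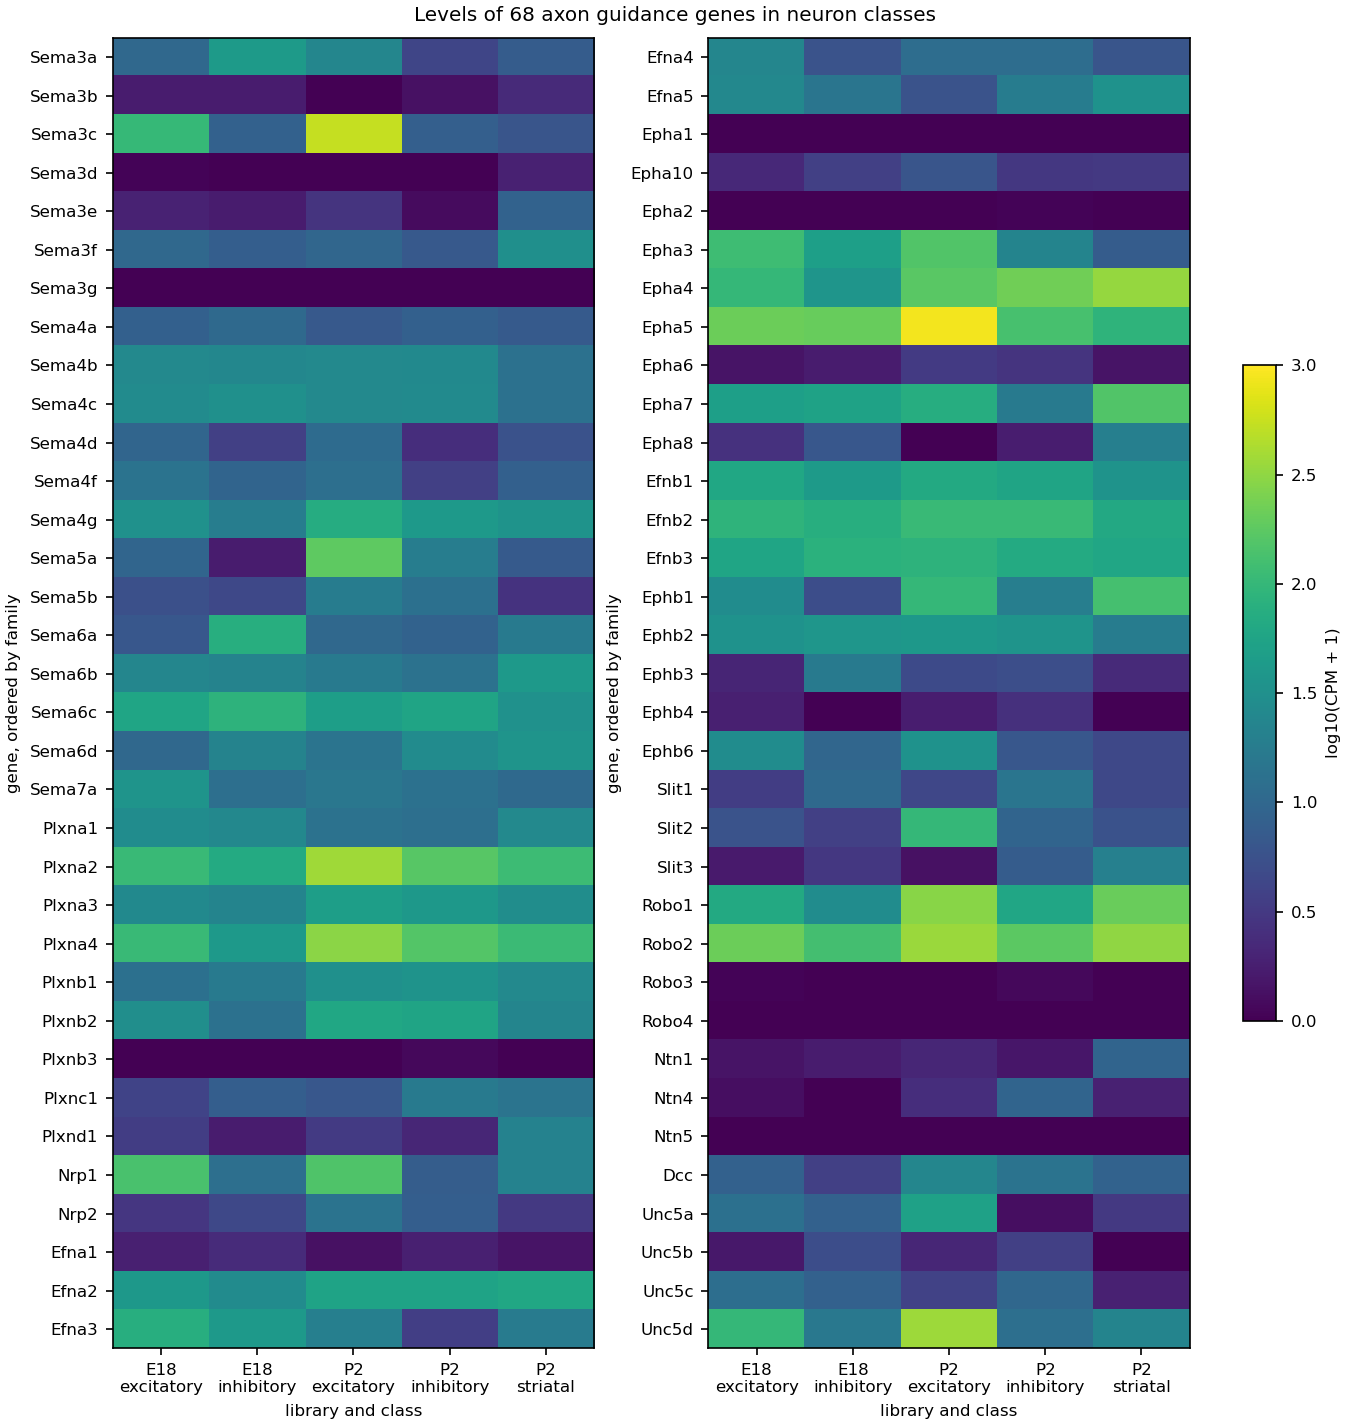
Levels of the 68 guidance genes as log10(CPM + 1), by colour, in the 5 neuron classes; rows are genes ordered by family, columns are library and class. Sema3c, Unc5d, Epha5 and Plxna2 are brightest in the P2 excitatory column, while Epha7, Ephb1 and Plxnd1 are brightest in the P2 striatal column.

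Excitatory cells were first set against inhibitory cells of the E18 library. More receptors than ligands were higher in excitatory cells. Of 46 guidance genes with 50 or more UMIs in the classes together, 15 were 2-fold or more higher and 5 were 2-fold or more lower in excitatory cells, against 8.44% higher and 5.15% lower of all 10386 genes with as many UMIs. The median log2 ratio of the 46 was 0.59, and that of all genes was -0.05. Among 25 ligands 5 were higher and 4 lower, and among 21 receptors 10 were higher and 1 was lower. The inhibitory class held Neurod6 at 1.89% of its excitatory level and microglia held it at 1.91%; the part of such RNA in the low levels was not tested.

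Among the ligands, Sema3c, a secreted semaphorin that acts through neuropilins, was at 101 CPM (1428 UMIs) in E18 excitatory and 7.51 CPM (11 UMIs) in inhibitory cells, 13.4-fold higher (log2 ratio 3.75, 2.90 to 4.75). Sema5a, a transmembrane semaphorin with thrombospondin repeats, was at 8.55 CPM in excitatory cells and had 1 UMI in inhibitory cells (3.65, 1.14 to 8.96). Efna4, a GPI-anchored ephrin, was at 23.1 and 4.78 CPM (2.27, 1.21 to 3.60), and Sema7a, a GPI-anchored semaphorin, at 34.8 and 11.6 CPM (1.58, 0.89 to 2.37). Ligands on the other side formed a smaller set. Sema6a, a transmembrane ligand of A-type plexins, was at 5.58 CPM (79 UMIs) in excitatory and 74.4 CPM (109 UMIs) in inhibitory cells, 13.3-fold lower in excitatory cells (-3.74, -4.17 to -3.31). Sema3a, a secreted repellent that acts through Nrp1, was at 9.26 CPM (131 UMIs) and 42.3 CPM (62 UMIs) (-2.19, -2.64 to -1.73). Slit1, a secreted repellent for Robo receptors, was at 2.54 and 9.56 CPM (-1.91, -2.84 to -0.90), and Sema6d at 9.33 and 21.2 CPM (-1.18, -1.76 to -0.57).

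Among the receptors, Nrp1 was at 137 CPM (1945 UMIs) in E18 excitatory and 11.6 CPM (17 UMIs) in inhibitory cells (log2 ratio 3.57, 2.88 to 4.35). Unc5d, a netrin receptor family member known from migrating cortical neurons, was at 97.4 and 15.02 CPM (2.70, 2.09 to 3.38). Ephb1, a receptor of B-type ephrins, was at 27.6 and 4.10 CPM (2.75, 1.62 to 4.21). Ephb6, which lacks kinase activity, was at 27.7 and 8.87 CPM (1.64, 0.85 to 2.56). Smaller differences in the same direction were seen for Epha4 (1.46, 1.06 to 1.89), Plxna4 (1.45, 1.07 to 1.86), Epha3 (1.25, 0.91 to 1.61) and Robo1 (1.24, 0.79 to 1.73). Epha5, which binds A-type ephrins, was nearly level at 208 and 199 CPM (0.07, -0.11 to 0.25). Plxnc1, the plexin that binds Sema7a, was the receptor lower in excitatory cells, at 2.97 and 6.83 CPM (-1.20, -2.22 to -0.04).

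Inhibitory cells of E18 formed 2 clusters, and several of these ratios depend on which is counted. The cluster led by Sst and Lhx6 (cluster 7, 168 cells) held all 62 of the inhibitory Sema3a UMIs, at 67.9 CPM, and the cluster led by Adarb2 (cluster 10, 130 cells) held 0. Without the Sst and Lhx6 cluster, an alternative added after the data were seen, the log2 ratio of Sema3a was 0.77 and that of Robo1 was -0.017. In the same setting Sema5a came to 0.65, Plxna4 to 0.65, Epha4 to 0.50 and Sema6d to -0.22, none of them 2-fold. With 0 inhibitory UMIs of Sema3a and of Sema5a left, their ratios were set against the limit of 3 UMIs. Sema3c came to 2.48, Ephb1 to 1.35, and Ephb6, Sema7a and Slit1 were further apart at 3.94, 3.26 and -3.09. These further ratios rest on few inhibitory UMIs. The cluster left out held 12 of 13 for Ephb6, 15 of 17 for Sema7a and 2 of 14 for Slit1. Robo1 was at 4.38 CPM in cluster 7 and 67.0 CPM in cluster 10.

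The excitatory class of E18 was not uniform. The clusters led by Sema3c and Slc17a6 (cluster 4, 191 cells) and by Sstr2 and Neurod1 (cluster 6, 179 cells) held 13.2% of the UMIs of the class. They held 55.1% of its Sema3c, 54.1% of its Unc5d and 65.3% of its Sema5a UMIs. Sema3c and Unc5d are among the 10 leading genes of each of these clusters, which were picked with this known. Their high shares therefore follow from that choice. Sema3c was at 437 CPM (397 to 480) in cluster 4 and 400.5 CPM (359.7 to 445) in cluster 6, at 242 CPM in cluster 1, which was led by Fgfr1 and Cck, and at 1.98 CPM in cluster 8, which was led by Msx3, Inhba and Rorb. Unc5d was at 382 CPM in cluster 4, 416 CPM in cluster 6 and 4.61 CPM in cluster 9, which was led by Hs3st4, Syt6 and Tle4. Clusters 8 and 9 were low in both genes, with Sema3c at 3.69 CPM in cluster 9 and Unc5d at 4.63 CPM in cluster 8.

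Other guidance genes peaked in other excitatory clusters. Nrp1 was highest in cluster 1, at 367 CPM, followed by cluster 4 at 308 CPM, and lowest in cluster 8, at 23.8 CPM. Epha3 was at 282 CPM in cluster 0, 262 CPM in cluster 6 and 254 CPM in cluster 4, whose intervals overlap, and at 8.35 CPM in cluster 12, which was led by Npy, Nefl and Fezf2. Efna5, a ligand of EphA receptors, was at 73.7 CPM in cluster 9, 60.7 CPM in cluster 12 and 60.2 CPM in cluster 8, and at 0.590 CPM in cluster 2. Cluster 9 also held the highest levels of Ephb1 at 101 CPM, Epha7 at 125 CPM and Efna3 at 127 CPM. Sema7a was at 102 CPM in cluster 8 and at 42.4 CPM in cluster 2, the next in order. Unc5c, a netrin receptor of repulsion, was highest in clusters 8 and 2, at 32.4 and 28.3 CPM, and had 0 UMIs in clusters 4 and 6, where Unc5d was high. By contrast Efna2 differed little, from 30.4 CPM in cluster 5 to 48.3 CPM in cluster 2.

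**Figure D2:**
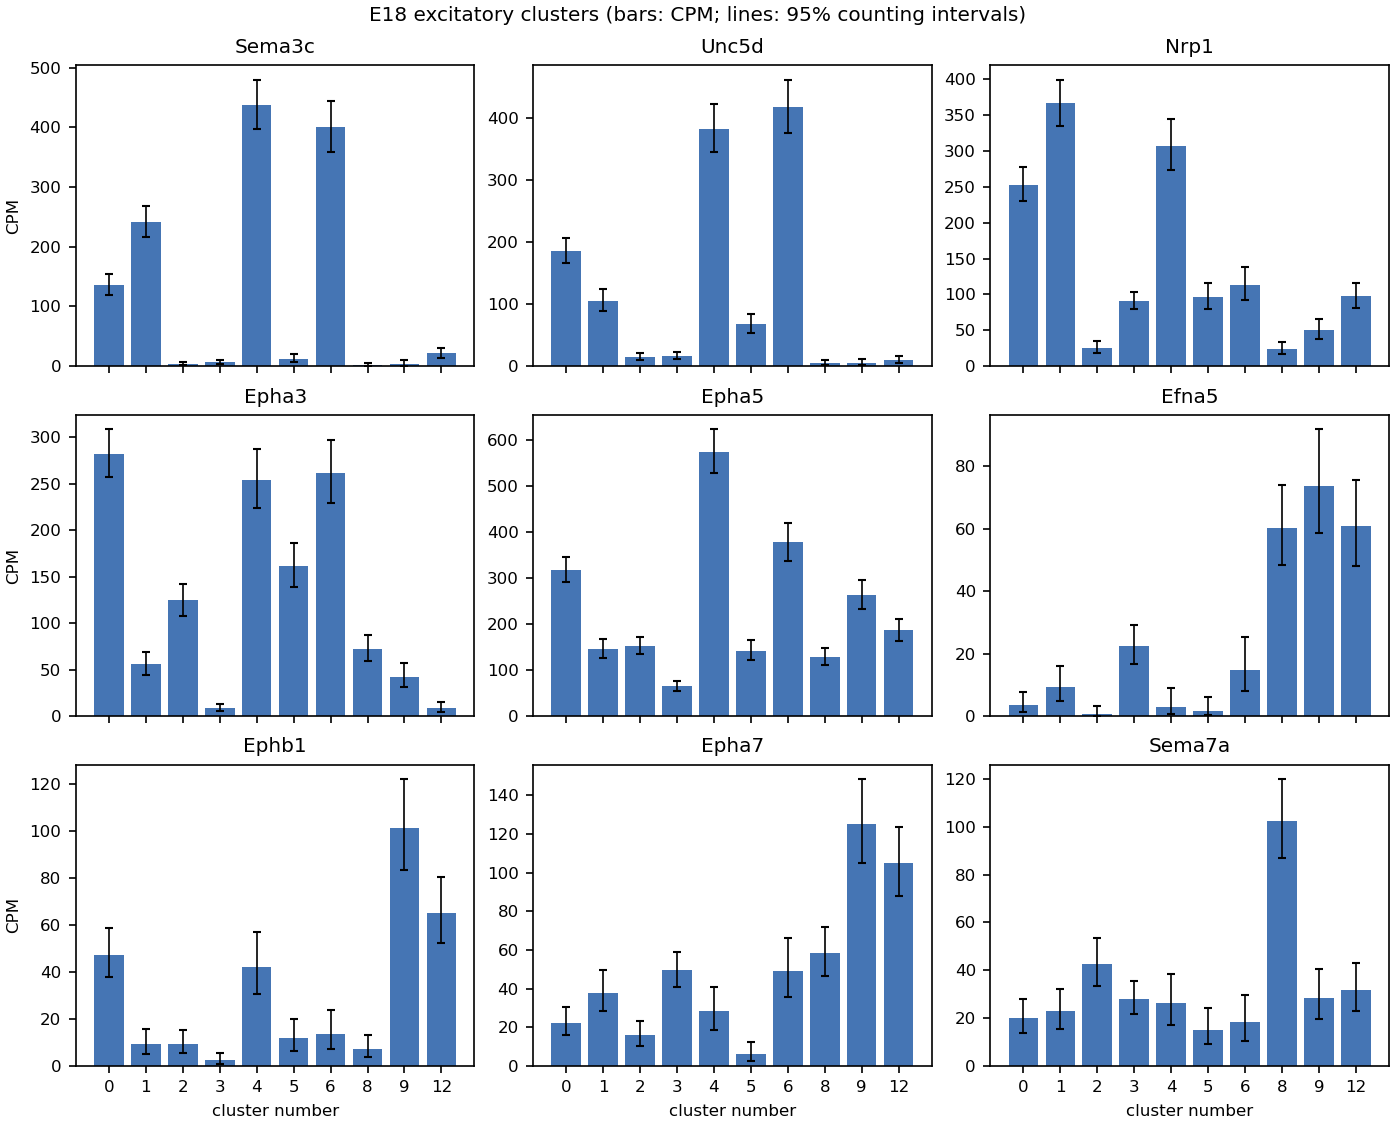
Bars give levels in CPM (vertical axis, from 0) of 9 guidance genes in the 10 E18 excitatory clusters (horizontal axis, cluster number); lines are 95% counting intervals. Sema3c and Unc5d stand highest in clusters 4 and 6, Efna5 in clusters 8, 9 and 12, and Sema7a in cluster 8.

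At P2 the same comparison gave larger ratios for several genes. Of 49 guidance genes with 50 or more UMIs in the P2 excitatory and inhibitory classes together, 17 were 2-fold or more higher and 7 were 2-fold or more lower in excitatory cells, against 6.48% higher and 7.12% lower of all 10770 genes. The median log2 ratio was 0.36, and that of all genes was 0.03. Of 26 ligands 6 were higher and 5 lower, and of 23 receptors 11 were higher and 2 lower. Neurod6 in inhibitory cells was at 0.470% of its excitatory level.

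Sema3c was at 542 CPM (1468 UMIs) in P2 excitatory and 6.99 CPM (94 UMIs) in inhibitory cells, 77.5-fold higher (log2 ratio 6.28, 5.98 to 6.59). It had a UMI in 96.3% of the 217 excitatory cells, with a median of 12271 UMIs per cell, and in 5.47% of inhibitory cells, with a median of 9770. Microglia, with a median of 19431 UMIs, had 0 Sema3c UMIs, but held Nrp1 at 77.2 CPM. Slit2, a secreted ligand of Robo receptors, was at 97.9 CPM in excitatory and 8.25 CPM in inhibitory cells (3.57, 3.24 to 3.90), whereas Slit1 was at 3.32 and 13.5 CPM (-2.02, -3.17 to -1.06) and Slit3 had 1 UMI in excitatory cells against 6.47 CPM (-4.13, -9.45 to -1.61). The ratio of Slit3 was -1.45 with a 5% mitochondrial limit and 1.86 with a naming score of 0.5, the latter from 1 UMI on each side. That score left 783 inhibitory cells, without the cluster led by Six3 and Calb1, which held 84 of the 87 inhibitory Slit3 UMIs. Sema5a was at 179 and 17.5 CPM (3.36, 3.13 to 3.59), and Sema3a at 22.9 and 3.20 CPM (2.84, 2.26 to 3.44). Efna3 was at 18.5 and 2.60 CPM (2.83, 2.17 to 3.49), while Efna5 was at 4.80 and 17.0 CPM (-1.82, -2.75 to -1.02). Ntn4, a secreted netrin related to laminins, was at 1.48 and 8.33 CPM (-2.50, -4.40 to -1.10).

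Receptors of P2 excitatory cells were led by Unc5a and Unc5d. Unc5a, a netrin receptor, was at 51.3 CPM (139 UMIs) in excitatory and 0.297 CPM (4 UMIs) in inhibitory cells, 173-fold higher (log2 ratio 7.43, 6.04 to 9.33). The inhibitory level lies near the limit of 3 UMIs, 0.223 CPM in this class. The part of RNA from other cells in it was not tested. Unc5d was at 366 and 11.3 CPM (5.02, 4.77 to 5.27), but Unc5c was lower in excitatory cells, at 2.95 and 9.15 CPM (-1.63, -2.87 to -0.61). Nrp1 was at 149 and 6.69 CPM (4.47, 4.14 to 4.82). Epha5 was at 874 and 132 CPM (2.73, 2.64 to 2.82), Epha3 at 151 and 21.4 CPM (2.82, 2.60 to 3.04) and Robo1 at 289 and 58.1 CPM (2.32, 2.17 to 2.46). Ephb1 was at 97.5 and 18.1 CPM (2.43, 2.17 to 2.69) and Epha7 at 73.9 and 16.4 CPM (2.17, 1.88 to 2.45). Epha4 was at 169 CPM in excitatory and 223 CPM in inhibitory cells (-0.40, -0.54 to -0.25), but its ratio was 0.098 with a 5% mitochondrial limit and -0.18 without the inhibitory cluster led by Lhx6 and Crabp1. Plxnc1 was lower in excitatory cells, at 5.54 and 16.4 CPM (-1.57, -2.43 to -0.82).

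P2 excitatory cells held Gad2 at 9.56% and Dlx1 at 4.74% of the inhibitory level, above the 2.13% and 0.809% of microglia. With 134 excitatory cells that had no Gad1, Gad2 or Dlx1 UMI, an alternative added after the data were seen, the ratio of Efna5 came to -4.65 and that of Epha5 to 2.93. The ratio of Efna5 was -0.17 without the inhibitory cluster led by Lhx6 and Crabp1.

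**Figure D3:**
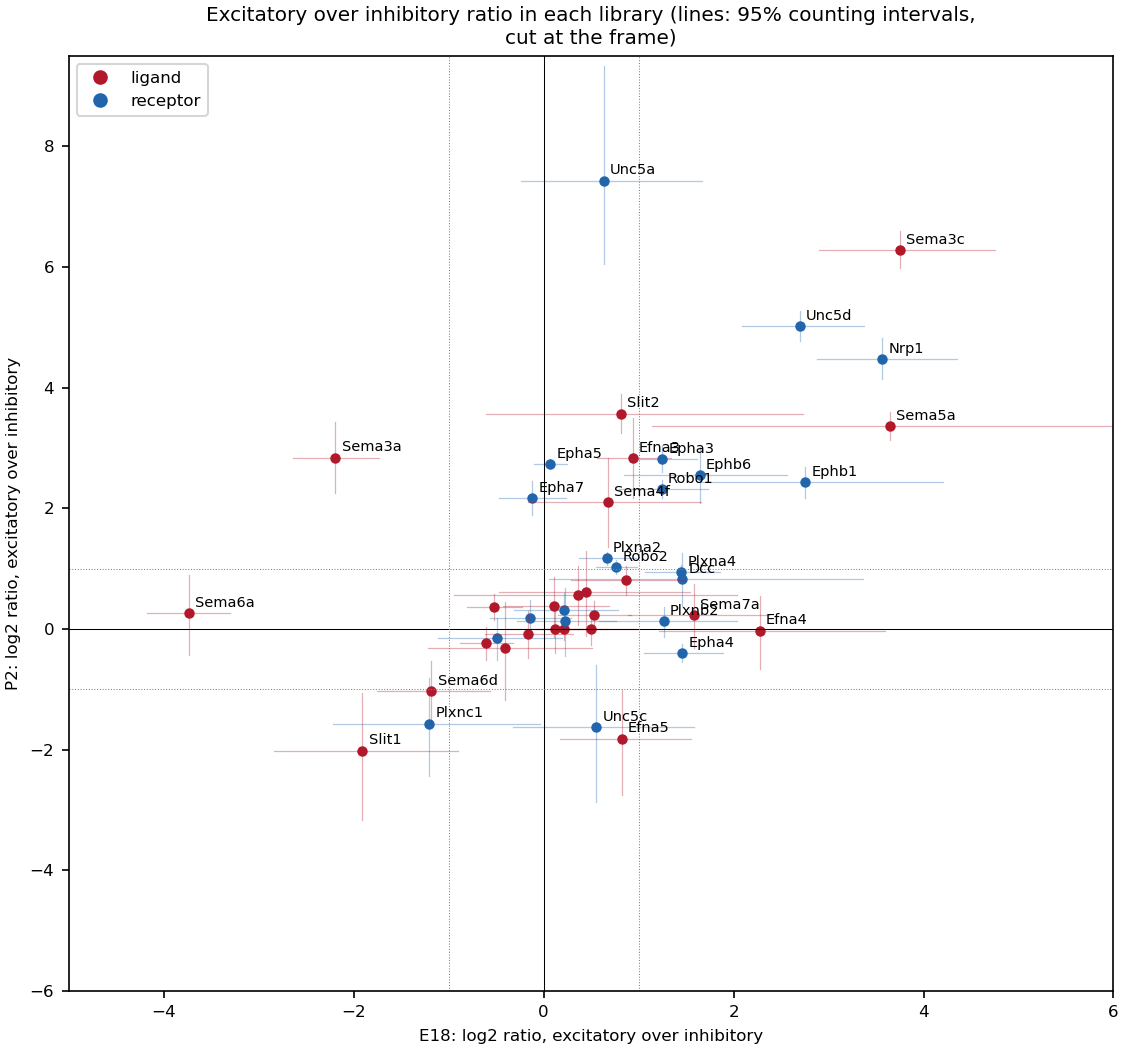
Log2 ratio of excitatory over inhibitory cells for 45 guidance genes, at E18 (horizontal axis) and at P2 (vertical axis), with ligands in red, receptors in blue, thin lines for 95% counting intervals and dotted lines at 2-fold. Sema3c, Unc5d and Nrp1 lie at the upper right, while Sema3a lies at -2.19 at E18 and 2.84 at P2.

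The libraries share no samples, so their ratios can be set side by side. Among 45 guidance genes with enough UMIs in both, 35 (77.8%) had the same sign, against 58.7% of 9839 genes in all. Of these, 8 were 2-fold or more higher in excitatory cells in both libraries, namely Epha3, Ephb1, Ephb6, Nrp1, Robo1, Sema3c, Sema5a and Unc5d. These are 57.1% of the 14 that were higher at E18 and 47.1% of the 17 that were higher at P2 among the 45. Plxnc1, Sema6d and Slit1 were 2-fold or more lower in both. Calls in both libraries were not counted over all genes, so these overlaps have no background share to be read against. Sema3a was 2-fold or more lower at E18 and higher at P2. Sema6a, at -3.74 in the E18 library, had a P2 ratio of 0.26 (-0.44 to 0.90). None of these differences between the libraries was tested.

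Within the P2 inhibitory class, which held 6 clusters, single clusters supplied most of some genes. Slit3 had 84 of its 87 UMIs in the cluster led by Six3 and Calb1 (cluster 7, 151 cells), 96.6% where that cluster held 13.4% of all UMIs, and was at 46.6 CPM (37.1 to 57.6) there. Efna5 had 71.1% and Unc5d 50.7% of their UMIs in the cluster led by Lhx6 and Crabp1 (cluster 12, 84 cells), which held 9.01% of all UMIs. Efna5 was at 134 CPM in cluster 12 and at 10.7 CPM in cluster 3, the next in order. Unc5c had 68.3% of its UMIs in cluster 0, led by Ntng1 and Prokr2, at 29.8 CPM, and Slit1 had 50.3% in cluster 5, led by Nr2f2 and Adarb2, at 34.9 CPM. Robo2, a receptor of Slits, was at 329 CPM in cluster 0 and 68.7 CPM in cluster 7. Robo1 was at 133 CPM in cluster 2, led by Foxp2, 130 CPM in cluster 12 and 8.47 CPM in cluster 3, led by St18 and Sp8. Dcc, the attractive netrin receptor, was at 41.2 CPM in cluster 2 and 30.5 CPM in cluster 7, and at 2.13 CPM in cluster 0.

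**Figure D4:**
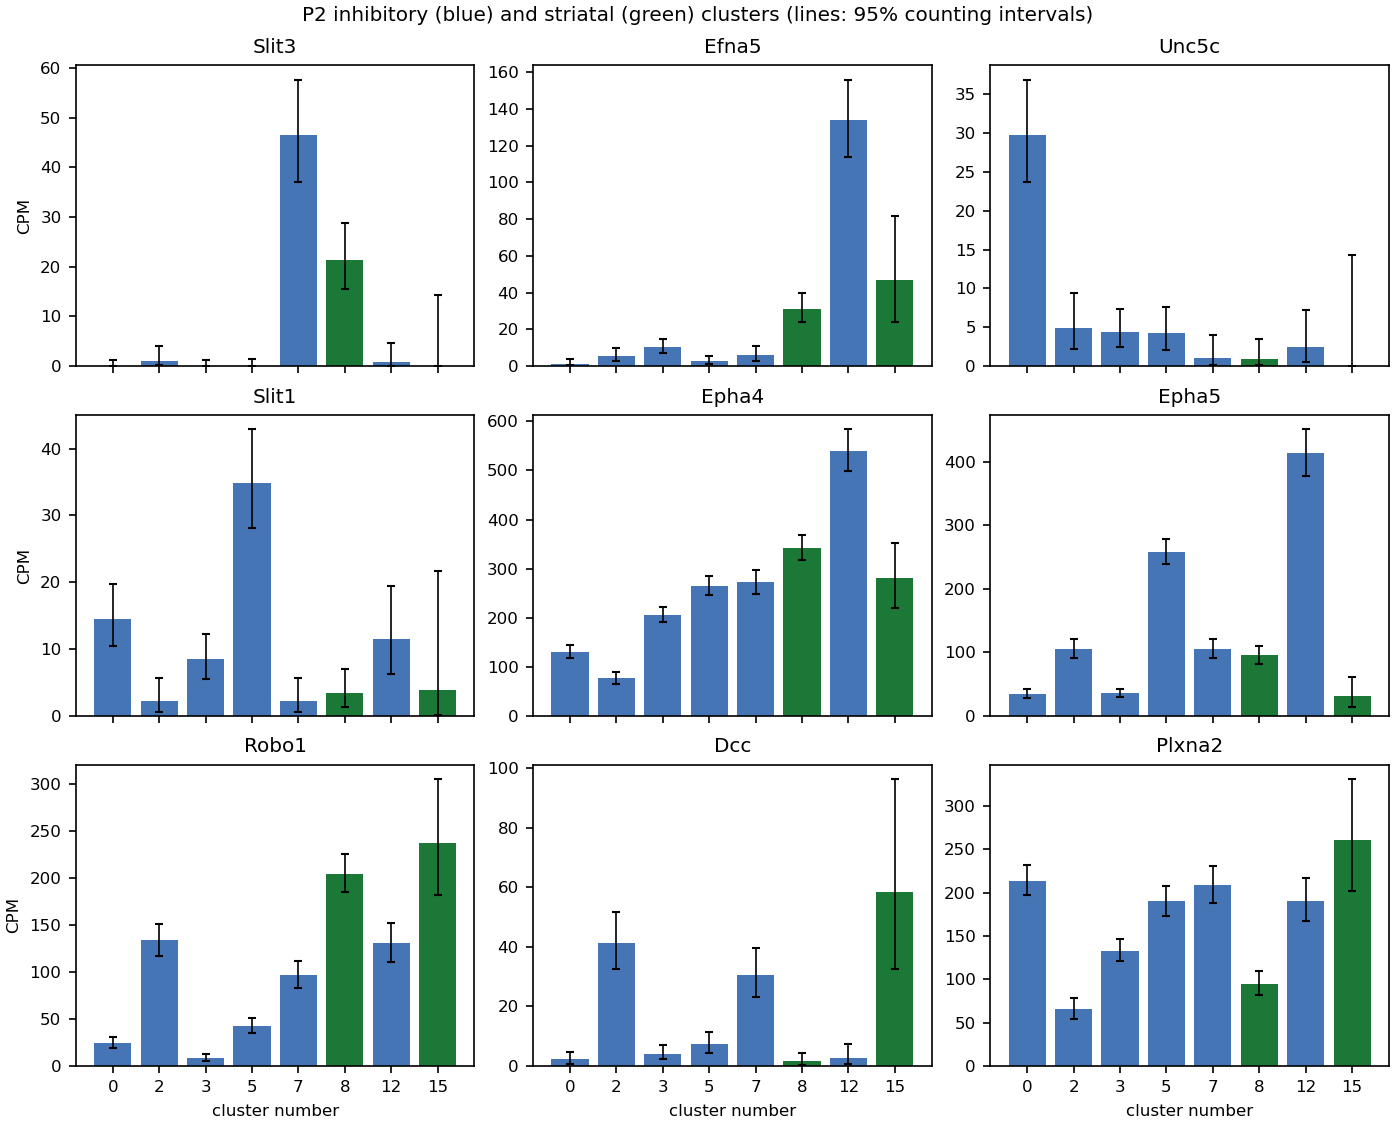
Bars give levels in CPM (vertical axis, from 0) of 9 guidance genes in the P2 inhibitory clusters (blue) and striatal clusters (green), by cluster number; lines are 95% counting intervals. Slit3 is highest in clusters 7 and 8, Efna5 in cluster 12, Unc5c in cluster 0 and Slit1 in cluster 5.

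Striatal projection neurons send axons to the globus pallidus and midbrain, and Plxnd1 with its ligand Sema3e is known from their wiring. In the P2 library the striatal class was set against the inhibitory class. Of 50 guidance genes, 14 were 2-fold or more higher and 12 were 2-fold or more lower in striatal cells, against 7.42% higher and 12.1% lower of all 10700 genes. The median log2 ratio was -0.40, and that of all genes was -0.11. Ligands and receptors both had 7 higher, of 26 and 24, and 7 and 5 lower.

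The receptors led the striatal side. Epha8 was at 18.6 CPM (43 UMIs) in striatal and 0.744 CPM (10 UMIs) in inhibitory cells (log2 ratio 4.64, 3.63 to 5.80). Plxnd1 was at 20.3 CPM (47 UMIs) and 1.12 CPM (15 UMIs) (4.19, 3.32 to 5.13). Its ligand Sema3e had too few UMIs for a ratio but was at 7.78 CPM in striatal and 0.223 CPM in inhibitory cells. Microglia of the same library held Plxnd1 at 19.0 CPM, while the striatal class had 0 UMIs of Tyrobp and 1 UMI of C1qa, both microglial genes. Epha7, a receptor of A-type ephrins, was at 154 and 16.4 CPM (3.23, 2.98 to 3.48), Ephb1 at 131 and 18.1 CPM (2.85) and Robo1 at 208 and 58.1 CPM (1.84, 1.67 to 2.01). Unc5c was lower in striatal cells, at 0.865 CPM (2 UMIs) against 9.15 CPM (-3.40, -6.46 to -1.52), and Epha3 was at 6.49 and 21.4 CPM (-1.72, -2.58 to -0.98).

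Among the ligands, Efna3 was at 16.9 CPM in striatal and 2.60 CPM in inhibitory cells (log2 ratio 2.70, 2.00 to 3.40). Sema3f, a secreted semaphorin that acts through Nrp2, was at 30.3 and 5.80 CPM (2.38, 1.90 to 2.87), while Nrp2 itself was at 2.16 and 6.92 CPM (-1.68, -3.33 to -0.40). Sema6b was at 40.2 and 12.5 CPM (1.69, 1.30 to 2.06) and Slit3 at 19.0 and 6.47 CPM (1.56, 1.00 to 2.10). The inhibitory cluster led by Six3 and Calb1 held Slit3 at 46.6 CPM (37.1 to 57.6), above the level of the striatal class. Without that cluster, the ratio of Slit3 was 6.21. Lower in striatal cells were Ntn4, at 0.865 and 8.33 CPM (-3.27, -6.33 to -1.38), Sema5b, at 1.73 and 11.7 CPM (-2.76, -4.66 to -1.38), and Slit1, at 3.46 and 13.5 CPM (-1.96, -3.19 to -0.95). With a mitochondrial limit of 5%, the ratio of Unc5c was -0.22, and 9 guidance genes were higher and 6 lower.

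Against excitatory cells of the same library, striatal cells held less of most guidance genes. Of 40 guidance genes, 6 were 2-fold or more higher and 19 were 2-fold or more lower, against 5.91% higher and 10.4% lower of all 8496 genes, with a median log2 ratio of -0.84 against -0.12 for all genes. The excitatory class stands in this comparison and in the previous excitatory one, so both rest on the same cells. Plxnd1 was at 20.3 CPM in striatal and 2.22 CPM in excitatory cells (3.20, 1.97 to 4.71). Efna5 was at 32.9 and 4.80 CPM (2.78, 1.92 to 3.75), Sema3f at 30.3 and 8.86 CPM (1.77, 1.08 to 2.51) and Epha7 at 154 and 73.9 CPM (1.06, 0.81 to 1.32). Epha8, with too few UMIs for the count, had 0 UMIs in excitatory cells, where 3 UMIs over the class would be 1.11 CPM, and was at 18.6 CPM in striatal cells. Far lower in striatal cells were Sema3c at 5.19 and 542 CPM (-6.71, -7.66 to -5.90), Sema5a at 6.05 and 179 CPM (-4.89, -5.77 to -4.13), Epha3 at 6.49 and 151 CPM (-4.54, -5.39 to -3.80) and Unc5d at 21.6 and 366 CPM (-4.08, -4.52 to -3.67).

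**Figure D5:**
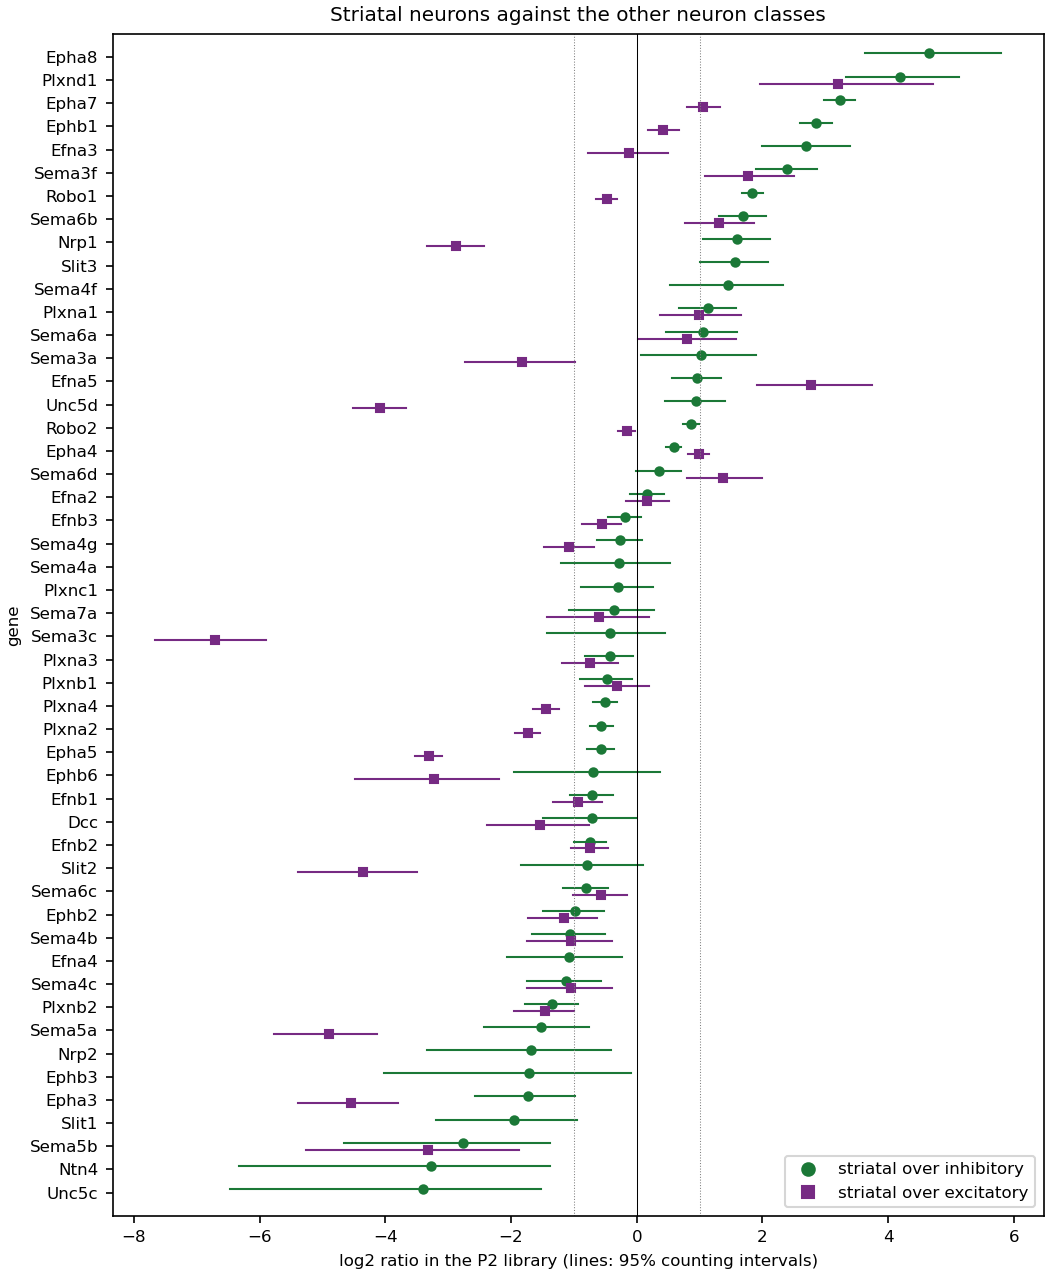
Log2 ratio in the P2 library (horizontal axis) of striatal over inhibitory cells (green circles) and striatal over excitatory cells (purple squares) for guidance genes with 50 or more UMIs, with 95% counting intervals; dotted lines mark 2-fold. Plxnd1 and Sema3f lie to the right in both, while Sema3c is near 0 against inhibitory cells (-0.43) and at -6.71 against excitatory cells.

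Ordering the 3 P2 classes by level, 52 guidance genes had 50 or more UMIs over them. Excitatory cells were highest for 28, inhibitory cells for 11 and striatal cells for 13. For 30 of these the counting interval of the highest level did not overlap that of the next. The excitatory ones were 17, among them Sema3c, Nrp1, Nrp2, Plxna2, Plxna4, Robo1, Slit2 and Dcc, and the inhibitory ones were 3, Ntn4, Slit1 and Unc5c. The striatal ones were 10, namely Efna5, Epha4, Epha7, Epha8, Ephb1, Plxna1, Plxnd1, Sema3f, Sema6b and Slit3. This order is of whole classes, and single inhibitory clusters stood above the striatal class for some of these. Cluster 12, led by Lhx6 and Crabp1, held Efna5 at 134 CPM and Epha4 at 540.5 CPM, against 32.9 and 335 CPM in striatal cells. Cluster 7, led by Six3 and Calb1, held Slit3 at 46.6 CPM, against 19.0 CPM in striatal cells. The place of Ephb1 depended on the cells taken: its log2 ratio of striatal over excitatory cells was 0.42 (0.18 to 0.67), but -0.35 with cells chosen by their own markers and -0.018 as a mean over cells. For the other 22, among them Robo2, Efna2 and Efnb2, these intervals overlapped. The same ordering was not made over all genes, so these counts cannot be read as particular to guidance genes. Interval width also follows the depth of a class, which was 13446967 UMIs for inhibitory and 2312863 UMIs for striatal cells.

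The P2 striatal class held a cluster with Drd2 and Adora2a at 84.2 and 84.6 CPM (cluster 8, 155 cells) and a cluster led by Ebf1 and Isl1, with 0 UMIs of Drd2 and Adora2a (cluster 15, 28 cells). Of 23 guidance genes, 1 was 2-fold or more higher and 6 were 2-fold or more lower in the Ebf1 and Isl1 cluster, against 2.74% higher and 8.6% lower of all 5991 genes. Plxna2 was at 261 CPM in the Ebf1 and Isl1 cluster and 94.9 CPM in the Drd2 cluster (log2 ratio 1.46, 1.03 to 1.87). Epha7 was at 46.7 and 167 CPM (-1.84, -2.81 to -1.02) and Plxna4 had a log2 ratio of -1.78 (-2.93 to -0.83). Unc5d, another of the 6, had 0 UMIs in the Ebf1 and Isl1 cluster and 24.3 CPM in the Drd2 cluster, and its ratio was set against the limit of 3 UMIs. Nrp1, with too few UMIs for the count, was at 85.5 CPM in the Ebf1 and Isl1 cluster and 12.2 CPM in the Drd2 cluster. These directions were not stable. With a mitochondrial limit of 5%, where the clusters hold other cells, the log2 ratios were -0.92 for Plxna2, 2.20 for Epha7 and 0.35 for Plxna4.

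Ligands and receptors that bind each other were not always high in the same class. Nrp1 and Sema3c were both highest in excitatory cells in each library. Sema3a and Nrp1 were on opposite sides at E18, with Sema3a at 42.3 CPM and Nrp1 at 11.6 CPM in inhibitory cells and 9.26 and 137 CPM in excitatory cells. Sema6a was at 74.4 CPM in E18 inhibitory and 5.58 CPM in excitatory cells, while its receptor Plxna2 was at 67.6 and 107 CPM and did not differ 2-fold. Radial precursors held Sema6a at 81.0 CPM in the E18 library and 163 CPM in the P2 library. Among the P2 classes, striatal cells were highest in Efna5, at 32.9 CPM, and in Epha4 and Epha7. The inhibitory cluster led by Lhx6 and Crabp1 stood above the striatal class in Efna5, at 134 CPM, and in Epha4, at 540.5 CPM. Epha3 and Epha5, which bind the same ligand, were highest in excitatory cells. Ntn1, the ligand of Dcc and Unc5 receptors, had too few UMIs for a ratio in any comparison, and was at 8.22 CPM in P2 striatal cells and 15.4 CPM in P2 radial precursors.

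Values of the libraries are given side by side, without a ratio. The excitatory class of E18 held clusters 8 and 9, and the inhibitory class of P2 held cluster 2, each with a striatal marker and no marker of their own class among 10 leading genes. Among the 10 leading genes of P2 excitatory cells (cluster 1), Neurod1, Slc17a6 and Sstr2 also led E18 clusters 4 or 6. Neurod2, Neurod6, Tbr1, Bhlhe22 and Nos1 led cluster 1 but neither E18 cluster. Sema3c and Unc5d were among the 10 leading genes of each of these clusters too, so their high levels there are not a separate result. Sema3c was at 542 CPM in P2 excitatory cells and at 437 and 400.5 CPM in E18 clusters 4 and 6, and Unc5d was at 366 CPM beside 382 and 416 CPM. Other genes were further apart. Sema5a was at 179 CPM at P2 and 35.2 and 50.1 CPM in the E18 clusters, Robo1 at 289 beside 69.3 and 41.0 CPM, Slit2 at 97.9 beside 17.1 and 14.8 CPM, and Plxna4 at 301 beside 77.4 and 99.0 CPM. Efnb1, an ephrin that binds EphB receptors, was at 65.4 CPM at P2 and 149 and 163 CPM in the E18 clusters.

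The interneuron clusters with Lhx6 are set side by side for genes chosen after their values were seen, for large gaps. Epha4 was at 15.3 CPM (14 UMIs) in the E18 cluster led by Sst and Lhx6 and at 540.5 CPM (655 UMIs) in the P2 cluster led by Lhx6 and Crabp1. Robo1 was at 4.38 and 130 CPM, Plxna4 at 21.9 and 228 CPM, and Efna5 at 19.7 and 134 CPM. Sema3a went the other way, at 67.9 and 2.48 CPM, as did Efna3, at 48.2 and 1.65 CPM, and Sema6a, at 83.3 and 23.1 CPM. Others were near level, such as Efnb2 at 72.3 and 76.7 CPM and Sema4b at 23.0 and 21.5 CPM. The clusters were led by Sst at E18 and by Crabp1 at P2, and age, tissue and library cannot be told apart.

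In the P2 library EYFP marks descent from Emx1-expressing progenitors. A UMI of EYFP was found in 178 of 217 excitatory cells (82.0%, exact binomial interval 76.3 to 86.9), 307 of 1152 inhibitory cells (26.6%, 24.1 to 29.3) and 22 of 183 striatal cells (12.02%, 7.69 to 17.6). Microglia, which arise outside the neural tube, had it in 0 of 43 cells, which allows a share of up to 6.98% by the limit of 3 counts (exact binomial upper bound 8.22%), at a median of 19431 UMIs against 9770 in inhibitory cells. Among inhibitory cells, 45 guidance genes had 50 or more UMIs, and 0 were 2-fold or more higher and 2 were 2-fold or more lower in the 307 EYFP-positive cells, against 0.493% higher and 1.43% lower of all 10349 genes. Slit3 was at 0.893 CPM (4 UMIs) in EYFP-positive and 9.26 CPM in EYFP-negative cells (-3.37, -5.28 to -1.96), and Nrp1 was at 3.13 and 8.48 CPM (-1.44, -2.38 to -0.61). The direction of Nrp1 was not stable, with a ratio of 0.12 with cells chosen by their own markers. The ratio of Slit3 was -0.67 with a 5% mitochondrial limit and 2.16 with a naming score of 0.5. That score left 783 inhibitory cells, without cluster 7 and with 1 Slit3 UMI. The value of 2.16 sets a side at 0 UMIs to 3 UMIs, and gives no direction for Slit3. The clusters differed in their share of EYFP-positive cells, from 8.26% in cluster 2 to 46.0% in cluster 3, with 37.2% in cluster 0 and 13.9% in cluster 7, and the part of this make-up in the ratios was not tested. Neither Robo receptor reached 2-fold: Robo2 was at 241 and 140.1 CPM (0.78, 0.67 to 0.90) and Robo1 at 39.1 and 67.6 CPM (-0.79, -1.04 to -0.55).

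Around these ligands and receptors stand co-receptors, other guidance cues and intracellular effectors. Of 26 co-receptors and other cues, 4 were higher and 5 lower in E18 excitatory cells, of 26 with enough UMIs, and 7 were higher and 5 lower in P2 excitatory cells, of 24. In striatal over inhibitory cells 6 were higher and 3 lower, of 24. The shares of all genes called in these comparisons, higher and lower, were 8.44% and 5.15% at E18, 6.48% and 7.12% at P2, and 7.42% and 12.1% for striatal over inhibitory cells. Cntn2, an adhesion molecule of axons, was higher in excitatory cells at E18 (179 and 19.8 CPM, log2 ratio 3.17) and at P2 (106 and 16.0 CPM, 2.73). Chl1, a relative of L1cam, was lower in excitatory cells at E18 (136 and 351 CPM, -1.37) and higher at P2 (361 and 26.0 CPM, 3.79). The chemokine receptors Cxcr4 and Ackr3, known from migrating interneurons, were lower in E18 excitatory cells (-5.13 and -7.68). In striatal cells Cntn1 (2.77), L1cam (2.27) and Flrt3 (2.26) were higher than in inhibitory cells.

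Counts of intracellular effectors are read against the same shares of all genes. Of 47 listed, 4 were higher and 4 lower in E18 excitatory cells, of 44 with enough UMIs, and 2 were higher and 5 lower in P2 excitatory cells, of 41. In striatal over inhibitory cells 4 were higher and 3 lower, of 42, and in striatal over excitatory cells 5 were higher and 0 lower, of 40, where 5.91% and 10.4% of all genes were called. Ngef, a guanine nucleotide exchange factor that acts below EphA receptors, was at 86.5 CPM in striatal and 2.31 CPM in inhibitory cells (5.23, 4.68 to 5.82). Vav3, an exchange factor known to act below Eph receptors, was at 17.9 and 2.05 CPM (3 UMIs) in E18 excitatory and inhibitory cells (3.13, 1.56 to 5.41). At P2 its ratio was 1.26. Vav2, of the same list, went the other way, at -1.93 (-2.41 to -1.43) at E18 and -1.91 at P2. Dpysl4, a member of the collapsin response mediator family known from semaphorin signals, was lower in excitatory cells at E18 (-1.93) and at P2 (-2.62).

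The other 5 symbols found by the rule are not guidance ligands or receptors. Plxna4os1, Plxna4os2 and Plxna4os3 are antisense genes of Plxna4, with at most 5 UMIs in any class, and since the sources used here do not give the strand of the libraries, reads of Plxna4 and of these genes cannot be told apart with certainty. Unc50, which encodes a Golgi membrane protein, lay between 26.8 and 47.6 CPM in the 5 classes, and Unc5cl had 0 UMIs in all of them.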

How the data were processed

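Per the file headers and the labels, the authors ran Cell Ranger 4.0.0 against mm10 and deposited unnormalized UMI counts for each gene in each barcode; gene and barcode lists, recorded as other, were deposited as names only. The sources used here do not give kit chemistry, strand or cell calling. Cells with 500 or more genes and 10% or less mitochondrial UMIs were kept. Scrublet called 7 E18 and 4 P2 cells as doublets, too few to serve, so cells at or above the top 5% of scores were dropped (135 and 146). Each library was clustered with scanpy 1.11.5 (2000 variable genes, 30 components, 15 neighbours, Leiden resolution 1), with guidance genes, EYFP, mitochondrial, haemoglobin and sex-linked genes left out. To be named, a cluster had to have 4 detected markers with a mean of at least 0.3 of their level in the highest cluster. A score of 0.5 was tried first and left most E18 excitatory clusters unnamed. The score was therefore set after seeing the data, as was the doublet rule. At 0.5 the P2 inhibitory class held 783 of its 1152 cells, without clusters 2 and 7. The P2 striatal class held 155 of its 183 cells, without the Ebf1 and Isl1 cluster. In P2, 1 neuron-class cell with 4 or more markers of microglia, endothelial cells, mural cells or fibroblasts was set aside.

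For each class, the counts of its cells were added up and scaled by its total UMIs (CPM). Ratios of summed counts are log2 with exact conditional intervals, levels have exact Poisson and shares exact Clopper-Pearson intervals, all 95% and covering counting error only. A class at 0 UMIs was set to 3 UMIs over the class. A gene was called at 2-fold or more among genes with 50 or more UMIs in both classes together, and the same rule over all genes gives the background. In each comparison up to 12 guidance genes with the highest and 12 with the lowest ratio, ranked by the interval bound nearest 0, could be named, as could both genes of listed ligand and receptor pairs, up to 4 of the co-receptors and effectors in each direction, and genes with few UMIs as low. Genes named for their level in a cluster, for a call in both libraries or for their order over the P2 classes were chosen after their values were seen. The ratio code was tested on simulated data. The guidance genes and the gene lists were chosen with earlier results of these data known. Alternatives covered cell filters, doublets, clustering, scaling (edgeR 4.0.16 for TMM), minimum UMIs and the call rule.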

Additional observations from a re-analysis of the deposited data

Results flagged for a closer look

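Sema3a differed in direction between the libraries. The log2 ratio of excitatory over inhibitory cells was -2.19 at E18 and 2.84 at P2, each with a counting interval on its own side of 0. With 1 library an age, the difference was not tested, and age, dissection, mouse line and library cannot be told apart. At E18 all 62 inhibitory Sema3a UMIs came from the cluster led by Sst and Lhx6. Without it the E18 ratio was 0.77, set against the limit of 3 UMIs because 0 inhibitory UMIs were left.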

How the results depend on the processing

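Of 1628 named log2 ratios recomputed under alternatives, 1424 stayed within the counting interval of the reported value, 191 moved further and 13 that were 2-fold or more changed to the other side of 0. The cause was not tested for any of them, beyond what leaving out a named cluster shows by construction. The 13 values were -0.017 for Robo1 and 0.77 for Sema3a in the E18 comparison without the cluster led by Sst and Lhx6; 1.86 for Slit3 in P2 excitatory over inhibitory cells and 2.16 for Slit3 in EYFP-positive over EYFP-negative cells with a naming score of 0.5; 0.045 for Sema4b in striatal over inhibitory cells with a 5% mitochondrial limit; 0.068 and 0.12 for Nrp1 in EYFP-positive over EYFP-negative cells with that limit and with cells chosen by their own markers; and, with that limit, 2.20 for Epha7, 0.023 for Plxna1, -0.92 for Plxna2, 0.35 for Plxna4, 0.18 for Plxnb1 and 0.084 for Unc5d in the Ebf1 and Isl1 cluster over the Drd2 cluster. In all, 62 ratios, these included, had another sign than the reported value. Among the 13, that of Sema3a was set against the limit of 3 UMIs, as 0 inhibitory UMIs were left. Those of Slit3 rest on 1 inhibitory UMI, since that naming score left out the inhibitory cluster that held most of its UMIs.

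Of 198 counts of genes called, 146 stayed within 1.5 times the reported count. For E18 excitatory over inhibitory cells, the 15 higher became 23 at 1.5-fold. The 5 lower became 3 with a 5% mitochondrial limit, without clusters led by another class and with cells chosen by their own markers, 8 at 20 UMIs, 14 at 1 UMI, 0 at 200 UMIs, 2 with a naming score of 0.5 and 1 without the cluster led by Sst and Lhx6. For P2 excitatory over inhibitory cells, the 7 lower became 4 with a 5% mitochondrial limit and with doublets kept, and 3 at 200 UMIs. For striatal over inhibitory cells, the 14 higher became 9 with a 5% mitochondrial limit and with a naming score of 0.5, 8 with cells chosen by their own markers, 23 at 1 UMI and 5 at 200 UMIs. The 12 lower became 6 with the 5% limit and with cells chosen by their own markers, 5 at 200 UMIs and 19 at 1.5-fold. For striatal over excitatory cells, the 6 higher became 3 with the 5% limit, 11 at 20 UMIs and at 1 UMI, and 1 at 200 UMIs, and the 19 lower became 11 at 200 UMIs. For EYFP-positive over EYFP-negative cells, the 0 higher became 1 with the 5% limit, with no cell filter, at Leiden resolution 0.5, with guidance genes among the clustering genes and with cells chosen by their own markers, 2 with doublets kept, and 3 at 1 UMI and at 1.5-fold. The 2 lower became 1 with the 5% limit, with no cell filter, with doublets kept and at resolution 0.5, 5 with cells chosen by their own markers and at 1 UMI, 6 as a mean over cells, 0 at 200 UMIs and 10 at 1.5-fold. For the Ebf1 and Isl1 cluster over the Drd2 cluster, the 1 higher became 5 with the 5% limit, 2 with doublets kept, at resolution 0.5, as a mean over cells and at 1.5-fold, 3 at 20 UMIs and 16 at 1 UMI, and the 6 lower became 3 with the 5% limit and at 200 UMIs.

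TMM scaling moved all ratios by 0.12 at E18 and by 0.11 for striatal over excitatory cells, and by less than 0.1 in the other comparisons. It gave summed levels of 2267 CPM for E18 excitatory, 4790 CPM for P2 excitatory, 1869 CPM for P2 inhibitory and 2341 CPM for P2 striatal cells. Ratios between the libraries, planned for the excitatory and inhibitory classes with the same alternatives, were not run, because clusters of these classes had more striatal markers than their own among their leading genes. A naming score of 0.5 gave no value for the comparison of the striatal clusters. No paired analysis was possible because each age has 1 library and no result comes from a test. Genes with few UMIs have wide intervals, and 22 of the 68 guidance genes were under the limit of 50 UMIs at E18.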
